A study of Rattus norvegicus with 79 samples.

Results

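The comparison described here sets aged rats that learned to swim to a visible platform against aged rats that never entered the water maze. Members were chosen by sample title, 8 arrays of the visible platform group and 5 of the cage control group, 13 of the 79 arrays in the series. All were male Fisher-344 rats of 24 months, housed 2 to a cage, with 1 array per animal; the labels name no allele or agent that sets the groups apart. Cage controls stayed in their home cages, and visible platform rats were trained in a pool where the escape platform could be seen. Rats were killed 24 hours after the last trial by decapitation after a lethal dose of pentobarbital, which both groups shared. RNA came from a punch of the main cell layer of CA1, an output field of the hippocampus, and was amplified in 2 rounds before labelling. The series also holds aged rats that swam with no platform (yoked, 8 arrays) or were trained with a hidden platform (13 labelled unimpaired, 10 impaired and 16 with a letter B that the labels do not explain), and 19 rats of 3 months.

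Finding a visible platform is a cued task: the rat swims toward something it can see, and the task depends less on the hippocampus than a search for a hidden platform does. It shares swimming, handling, exertion and water exposure with the spatial task. Swimming is a stressor that releases corticosterone, which acts in CA1 pyramidal neurons through the glucocorticoid and mineralocorticoid receptors. Activity-induced transcripts such as those of Fos and Arc peak within hours of a stimulus, so tissue taken a day later mainly reports slower changes.

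Array quality varied within both groups. The median Spearman correlation of an array with the other 78 was under 0.85 on 4 of 8 visible platform arrays (numbers 33, 67, 68 and 97, by animal) and on 1 of 5 cage arrays (99). It was 0.645 on visible array 67, 0.738 on array 97, 0.763 on array 68, 0.794 on array 33 and 0.778 on cage array 99. The group means were 0.834 ± 0.114 (SD, n = 8) and 0.878 ± 0.0639 (SD, n = 5), a difference that an exact two-sided permutation test did not separate from the spread (p = 0.460, and 0.577 adjusted over the 4 quality measures). Results are given below with all arrays first, and then without the arrays under 0.85, which leaves 4 against 4. For 12 measured markers of CA1 pyramidal neurons, the summed signal was 40179 to 147784 in cage controls and 24135 to 141517 after visible platform training. None read 0, which says little, since only 46 values on all 79 arrays are 0. Markers of neighbouring fields summed to between 4950 and 7387 in visible platform rats and between 3716 and 5759 in cage controls, over 7 genes with no value of 0. In a punch of tissue, fewer cells of a type and less RNA per cell cannot be told apart.

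No gene differed past the threshold between the groups. With limma, 0 of 5244 tested probe sets (0%) had a Benjamini-Hochberg adjusted p under 0.05, and the smallest adjusted p was 0.213. An unadjusted p under 0.05 was found for 501 probe sets (9.55%), where 262.2 would be expected at that level. Of these, 358 (6.83%) were higher and 143 (2.73%) lower in visible platform rats. The count of 501 depended on the fit and on single arrays. It was 334 with only the 13 visible and cage arrays fitted and 379 after quantile normalization. With single arrays left out it ran from 333 without visible array 67 to 634 without visible array 96. The median standard error of a log2 difference was 0.41. Over all tested probe sets the median log2 difference was 0.0978, and it became 0.0137 after quantile normalization and -0.105 after median centring, so that the excess of higher values depends on the scaling: after median centring 189 were higher and 276 lower at an unadjusted p under 0.05. Changes below are log2 differences, visible platform minus cage, of log2(signal + 15), with the standard error after ±.

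Of the 8 genes whose main probe set separated the groups without overlap, G0s2 had the smallest unadjusted p; its protein inhibits the lipase that breaks down stored triglyceride. Its signal was 361.4, 358.1, 273.1, 424.3 and 210.0 on the cage arrays 35, 36, 98, 99 and 100. In visible platform rats it ran from 31.2 through a median of 128.4 to 206.4. All 8 visible platform arrays therefore lay below all 5 cage arrays. The log2 difference was -1.45 ± 0.37 (limma adjusted p = 0.340), and -0.94 without the arrays of low correlation. Aged yoked rats had a median signal of 142.1, unimpaired hidden platform rats 164.2 and impaired ones 167.2. Against the same 5 cage arrays, which these comparisons share, yoked rats differed by -0.98 in G0s2.

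Map3k12 encodes the dual leucine zipper kinase, a neuronal stress kinase upstream of JNK signalling. Cage arrays read 788.4, 1173.4, 748.4, 1010.4 and 817.2, in the order of animals 35, 36, 98, 99 and 100. Visible platform arrays ran from 72.3 through a median of 485.9 to 568.4. The groups did not overlap, although arrays 67 (105.4) and 68 (72.3) lay far below the other 6, which held between 464.8 and 568.4. The difference of Map3k12 was -1.37 ± 0.41 (limma adjusted p = 0.340), and -0.74 without the arrays of low correlation. The median signal was 616.8 in yoked, 555.3 in unimpaired and 547.6 in impaired aged rats.

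Ntm encodes neurotrimin, a neural cell adhesion molecule of the IgLON family. Its cage arrays held 1615.9, 1216.6, 2082.3, 1590.7 and 1157.4, and the visible platform arrays ran from 61.7 through 843.8 to 1122.5. The groups did not overlap, and the highest visible platform array came close to the lowest cage array. The difference was -1.53 ± 0.53, and -0.63 without the arrays of low correlation, since arrays 67 (85.3) and 68 (61.7) were the lowest. Odf2, a centrosome and cilium scaffold gene, held 219.9, 205.1, 253.5, 343.4 and 170.7 in cage rats against 53.5 to 166.6, with a median of 97.6, in visible platform rats. Its difference was -1.05 ± 0.36 and stayed at -0.75 without the arrays of low correlation.

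Higher in every visible platform array than in every cage array was Edem3, which acts in the degradation of misfolded glycoproteins from the endoplasmic reticulum. Its cage signals were 174.6, 159.8, 186.0, 94.1 and 195.9. The visible platform arrays ran from 201.2 through 335.8 to 475.6. The difference was 0.93 ± 0.29, and 0.57 without the arrays of low correlation. Gpd2, the mitochondrial glycerol 3-phosphate dehydrogenase, read 344.6, 315.0, 297.1, 161.6 and 270.8 in cage rats and 371.1 to 1526.5, with a median of 488.0, in visible platform rats. The 2 highest values of Gpd2 were those of arrays 67 (1526.5) and 68 (1080.8), and its difference of 1.10 ± 0.37 became 0.49 without the arrays of low correlation. Another probe set of Gpd2 differed by 0.11. Mrps31, a protein of the small mitochondrial ribosomal subunit, read 388.5, 470.8, 312.5, 449.5 and 385.0 against 481.4 to 1117.1, with a median of 609.9. Its difference was 0.68 ± 0.27, and 0.60 without those arrays. Pitx3, a homeobox gene of dopamine neurons, lay between 322.0 and 417.3 in cage rats and between 425.4 and 1938.7 in visible platform rats, where arrays 67 and 68 again held the highest values.

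**Figure D1:**
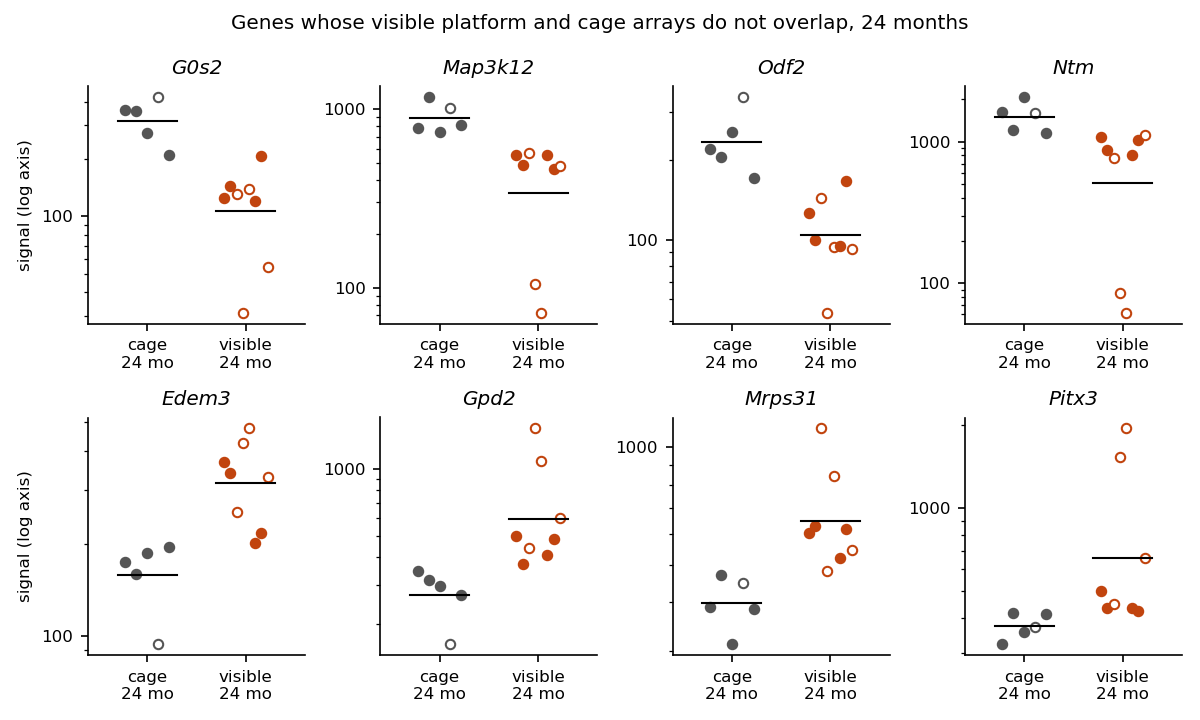
Signal per array (log axis) in 24-month cage (grey) and visible platform (orange) rats for the 8 genes whose main probe set did not overlap between groups; open points are arrays of correlation under 0.85 and the line is the mean on the log2(signal + 15) scale. For Map3k12, Ntm, Gpd2 and Pitx3, visible arrays 67 and 68 lie far from the other 6.

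In all, 20 of 5244 probe sets (0.381%) had groups that did not overlap, 12 higher (0.229%) and 8 lower (0.153%) in visible platform rats. With the arrays of low correlation dropped, 250 did not overlap, a count over 4 against 4 arrays that cannot be read against that of 8 against 5. Leaving out 1 array in turn gave between 21 and 46, the latter without cage array 100. Among the 20 were further probe sets of genes whose main probe set overlapped: Psmd4, Ap2b1, the p75 neurotrophin receptor Ngfr and Nfib were of this kind. For Psmd4, a ubiquitin receptor of the proteasome, that probe set read 1481.7 to 2794.0 in cage and 37.4 to 1389.8 in visible platform rats (-1.63 ± 0.48).

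The 10 genes with the smallest unadjusted p in each direction had adjusted p values between 0.340 and 0.362, so their differences are given as values. Of the lower genes beyond those above, Hbb and Hbb-b1 encode beta globin chains of red cells. Hbb read 7707.2, 10741.6, 1792.2, 12613.8 and 5363.8 in cage rats and 91.9 to 4289.3, with a median of 1962.2, in visible platform rats. All 8 visible platform arrays lay below the cage mean of Hbb, and 4 lay below every cage array. The difference was -2.49 ± 0.79 and became -1.04 without the arrays of low correlation. Hbb-b1 ran from 1110.0 to 4316.2 in cage and from 93.8 to 1670.6 in visible platform rats (-1.62 ± 0.53, and -0.75 without those arrays). Beta globin copies resemble each other closely, so a probe set of one may also read another. Of the 6 measured blood genes, 3 were lower and 3 higher, with no value of 0. Their summed signal was 2049 to 6874 in visible platform rats and 3733 to 18024 in cage controls. The part of blood in the other differences was not tested.

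Psmd4 on its main probe set read 4018.8, 3261.8, 6116.2, 5794.3 and 4223.8 in cage rats. Visible platform arrays ran from 386.3 through 2880.8 to 3884.8, so 5 of 8 lay below every cage array. The difference was -1.08 ± 0.34, and -0.59 without the arrays of low correlation. Nfkbia encodes the inhibitor of NF-kappaB and is induced by glucocorticoids. It read 267.9, 263.4, 437.3, 767.3 and 233.3 in cage rats against 36 to 323.8, with a median of 153.0, and 6 of 8 visible platform arrays lay below every cage array. Its difference of -1.38 ± 0.46 became -0.38 without the arrays of low correlation. The histone gene Hist1h2af differed by -1.42 ± 0.47, and by -0.26 without those arrays; histone genes form families of near-identical copies.

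Higher in visible platform rats was Gjb1, the connexin 32 gene of myelinating oligodendrocytes. It read 270.3, 262.5, 55.0, 105.7 and 222.8 in cage rats and 232.0 to 665.1, with a median of 406.8, in visible platform rats. Of 8 visible platform arrays 5 lay above every cage array, and the difference was 1.21 ± 0.35 (0.81 without the arrays of low correlation). Slc4a7, a sodium bicarbonate cotransporter, read 552.7, 649.4, 730.9, 441.0 and 328.0 against 706.7 to 4938.0, with a median of 1182.5. Of 8 visible platform arrays 7 exceeded every cage array of Slc4a7, and the difference of 1.34 ± 0.41 was 1.03 without the arrays of low correlation.

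Capn1, the calcium-activated protease calpain 1, ran from 230.2 to 410.3 in cage and from 351.5 to 1512.0 in visible platform rats (1.00 ± 0.31, and 0.65 without those arrays). Maz, a zinc finger transcription factor, ran from 81.4 to 133.2 in cage and from 132.4 to 819.4 in visible platform rats (1.38 ± 0.40, and 0.60 without those arrays). Smo, the transducer of Hedgehog signals, ran from 67.1 to 524.9 and from 214.0 to 1095.9 (1.58 ± 0.49, and 1.27 without those arrays), the high cage value being that of array 99. The remaining higher genes were Zbtb38, a methyl-DNA binding zinc finger gene (1.55 ± 0.45), the calcium channel subunit gene Cacnb1 (1.20 ± 0.35), the co-chaperone gene Dnajb5 (1.03 ± 0.31), the low-affinity IgE receptor gene Fcer2 (1.04 ± 0.30) and Thpol1 (1.29 ± 0.38). For Thpol1, another probe set differed by -0.60, in the opposite direction. For each of these 10 genes all 8 visible platform arrays lay above the cage mean.

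Without the arrays of low correlation, limma called 0 of 5244 probe sets at a smallest adjusted p of 0.169, with 578 at an unadjusted p under 0.05. The genes with the smallest p were then others. Prdx3, the mitochondrial peroxiredoxin that removes hydrogen peroxide, read 505.5, 831.2, 600.2, 265.3 and 484.4 in cage rats. Visible platform arrays ran from 197.4 through a median of 1088.0 to 1596.3. Of the 8, 6 lay above every cage array, while array 67 (197.4) lay below them all and array 68 (478.7) inside their range. The difference of Prdx3 was 0.79 ± 0.41 with all arrays and 1.29 ± 0.27 without those of low correlation (limma adjusted p = 0.169).

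The other higher genes of that fit were Ginm1 (1.84 ± 0.45), Rdh10, a retinol dehydrogenase of retinoic acid synthesis (1.67 ± 0.38), Wbp11, a splicing factor (1.09 ± 0.28), and Ap1s1, a subunit of a clathrin adaptor (0.95 ± 0.23). With all arrays Ap1s1 differed by 0.15 ± 0.37, and by -0.046 after quantile normalization and -0.049 after median centring. The lower genes were Map4k4, a kinase upstream of JNK (-1.68 ± 0.48), Paqr3 (-1.29 ± 0.39), Cpe, the carboxypeptidase that matures neuropeptides and is needed for sorting of BDNF (-0.998 ± 0.26), the tubulin gene Tuba1b (-0.78 ± 0.23) and Sparcl1, a synapse-promoting protein of astrocytes (-0.70 ± 0.20). Their adjusted p values lay between 0.183 and 0.231.

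Cpe showed how the arrays of low correlation entered a value. Its cage signals were 18029.6, 25526.1, 52867.6, 37106.2 and 14571.0, and the visible platform arrays 31, 32, 69 and 96 held 11514.9, 11617.1, 12695.6 and 13108.6, below every cage array. Arrays 33, 68 and 97 held 38434.1, 40894.7 and 28500.1, inside the cage range, and array 67 held the lowest value of all, 9705.2. With all arrays the difference was -0.58 ± 0.45.

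With array weights, which let an array count less the more it scatters around its group, 208 probe sets (3.97%) passed, 147 that rose (2.8%) and 61 that fell (1.16%). The weights gave visible arrays 67 and 68 0.116 and 0.189 and visible arrays 31 and 32 4.30 and 5.10, so that few arrays carried most of the weight. Of the 208, 205 had the same direction in the unweighted fit, where 103 had an unadjusted p under 0.05, and 208 had it without the arrays of low correlation. These fits share animals, and the other visible arrays of low correlation, 33 and 97, also had small weights (0.401 and 0.265). The weighted fit therefore leans on much the same arrays as the fit without them, and the shared direction carries no separate weight. The genes named here that passed with weights were, among the higher, Prdx3 (1.37 ± 0.24, limma adjusted p = 0.00238), Ginm1 (2.01 ± 0.38), Slc4a7 (1.27 ± 0.25), Wbp11 (1.12 ± 0.23), Rdh10 (1.25 ± 0.29), Ap1s1 (0.92 ± 0.22), Edem3 (0.87 ± 0.22), Man1a1 (1.10 ± 0.30) and a further probe set of Ap2b1 (0.76 ± 0.19). Among the lower they were Paqr3 (-1.47 ± 0.33, limma adjusted p = 0.00903), Sparcl1 (-0.84 ± 0.21), Map4k4 (-1.85 ± 0.49), G0s2 (-1.14 ± 0.30), Map3k12 (-0.83 ± 0.23) and Cpe (-0.77 ± 0.23). Without weights none of these passed.

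**Figure D2:**
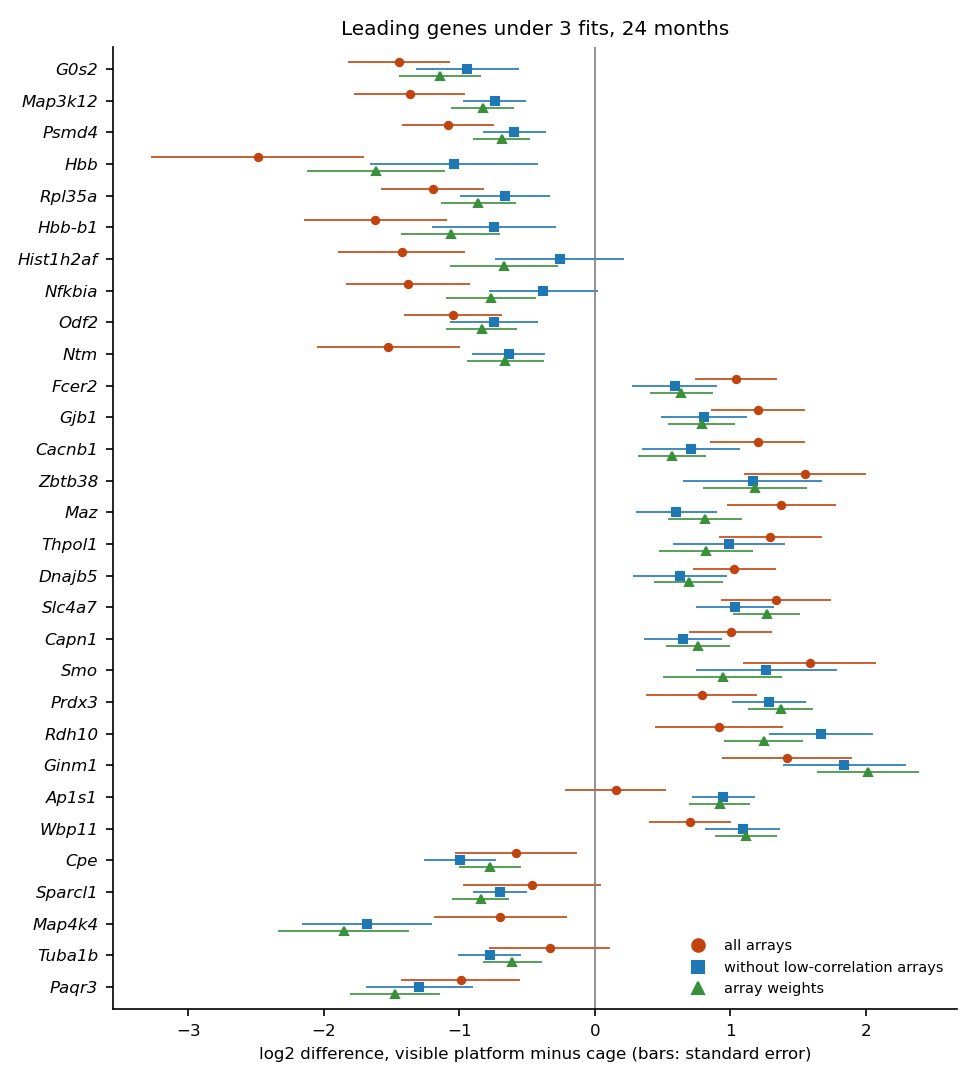
Log2 difference, visible platform minus cage at 24 months, with its standard error for 30 leading genes with all arrays (orange circles), without arrays of low correlation (blue squares) and with array weights (green triangles). The upper 20 genes were taken from the fit of all arrays, and most lie nearer 0 in the other fits; the lower 10 were taken from the fit without arrays of low correlation.

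Genes of the cytosolic ribosome, which make the protein part of the translation machinery, lay lower as a list. Of 39 measured, 0 passed, 30 were lower (76.9%) and 9 higher, against 41.8% lower and 58.2% higher of all 3233 tested genes, and the median difference was -0.64 against 0.0979 for all genes. At an unadjusted p under 0.05, 6 were lower and 0 higher, where 2.54% of all genes were lower and 6.93% higher. By array, the median of the list relative to the cage mean was between -0.12 and 0.14 in cage rats. It was -1.46 on visible array 67, -1.08 on array 68, -0.58 on array 31 and -0.43 on array 32, and between -0.22 and 0.03 on arrays 33, 69, 96 and 97. The list thus lay below every cage array on 6 of 8 visible platform arrays, by little on arrays 69 and 97. Without the arrays of low correlation the median was -0.32 with 32 of 39 lower, and without visible array 67 alone it was -0.41. It was -0.37 after quantile normalization and -0.84 after median centring. Within the animals numbered 25 to 36 (3 visible, 2 cage) it was -0.51 with 34 of 39 lower, and within those numbered 81 to 100 (2 visible, 3 cage) it was -0.15 with 24 of 39 lower.

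Rpl35a, a protein of the large subunit, read 4189.4, 4346.5, 6186.6, 5806.1 and 3848.1 in cage rats. Visible platform arrays ran from 901.1 through 2404.9 to 4335.5, and 7 of 8 lay below every cage array. The difference was -1.20 ± 0.38, and -0.66 without the arrays of low correlation. Rpl14 read 2159.7, 2163.6, 2111.5, 1052.3 and 1408.1 in cage rats and 159.0 to 1505.3, with a median of 1073.4, in visible platform rats (-1.05 ± 0.39, and -0.61). Rpl18 differed by -1.24 ± 0.48 (-0.50 without those arrays) and Rpl36 by -1.53 ± 0.61 (-0.63). For Rpl36, visible arrays 96 and 97 at 4887.2 and 4309.9 lay within or above the cage range of 3991.2 to 4882.0, while arrays 67 and 68 held 45.8 and 476.2.

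Messenger RNAs of ribosomal proteins are known for a run of pyrimidines at their first base, through which their translation is regulated together. The windows around the annotated starts of these 4 genes are shown for that feature, from RefSeq on GRCr8, on the transcribed strand, from 60 bases before the start to 10 bases from it. Capitals mark the unbroken run of C and T that covers the annotated start.
Rpl35a, chr11:81235012-81235081, minus strand: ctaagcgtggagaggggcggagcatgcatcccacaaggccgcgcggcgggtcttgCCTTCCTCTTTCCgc
Rpl14, chr8:129163560-129163629, plus strand: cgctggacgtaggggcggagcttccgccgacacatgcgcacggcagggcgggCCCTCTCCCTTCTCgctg
Rpl18, chr1:105325210-105325279, plus strand: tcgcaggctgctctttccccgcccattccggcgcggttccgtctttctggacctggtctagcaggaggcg
Rpl36, chr9:1533720-1533789, plus strand: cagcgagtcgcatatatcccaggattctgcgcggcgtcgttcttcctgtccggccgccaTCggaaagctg
The run was 13 bases long in Rpl35a and 14 in Rpl14, 2 in Rpl36 and 0 in Rpl18. A run of at least 8 covered the start in 15 of the 35 ribosomal protein genes found in the table (42.9%), in 4.26% of 2653 tested genes and in 4.43% of all 33469 promoters of 300 bases. The annotated start can lie a few bases from the true one, and the runs describe these letters only.

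Genes of oxidative phosphorylation, the respiratory chain of mitochondria, had a median of -0.42, with 38 of 50 lower and 0 past the threshold. Ndufa3, Ndufa5 and Ndufv2 are subunits of complex I. Ndufa3 read 3389.8, 4151.9, 7975.7, 6397.8 and 3864.1 in cage rats and 282.3 to 4680.7, with a median of 2765.3, in visible platform rats (-1.24 ± 0.49). Ndufa5 differed by -0.88 ± 0.34 and Ndufv2 by -0.76 ± 0.33. The list's median by array was -1.89 on visible array 67 and between -0.66 and 0.14 on the other 7, against -0.19 to 0.31 in cage rats. It was -0.12 with 30 of 50 lower without the arrays of low correlation, -0.21 without array 67 alone, and 0.0117 after removal of arrays where a gene's probe sets disagreed strongly, so its direction rests on the arrays kept.

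Proteasome genes, whose products degrade ubiquitin-tagged proteins, had a median of -0.36, with 21 of 25 lower. None passed. At an unadjusted p under 0.05, 5 were lower and 2 higher, 28% of the list against 9.46% of all genes (2.54% lower, 6.93% higher). Psma5, a core subunit, read 3678.3, 3606.8, 3594.3, 2923.3 and 3153.5 in cage rats and 341.8 to 3228.7, with a median of 2333.2, in visible platform rats (-1.08 ± 0.42). Another probe set of Psma5 differed by -0.021. Psmd13, a subunit of the regulatory cap, differed by -0.97 ± 0.37. The proteasome activator Psme4 lay the other way, at 0.95 ± 0.35. Without the arrays of low correlation the list's median was -0.16 with 18 of 25 lower, and Psma5 differed by -0.24, Psmd13 by -0.40 and Psme4 by 0.34. Without visible array 67 alone the median was -0.24.

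Antioxidant genes were split, with 12 of 25 higher and a median of -0.29 (11 of 25 and -0.14 without the arrays of low correlation). Beside Prdx3 stood Prdx6, a cytosolic peroxiredoxin of astrocytes, which read 4364.3, 6555.9, 5679.1, 4071.6 and 3391.1 in cage rats and 598.9 to 4413.4, with a median of 3298.7, in visible platform rats (-1.02 ± 0.42, and -0.36 without the arrays of low correlation). Other probe sets of Prdx6 differed by -0.74 and -0.093. Hk2, a hexokinase that phosphorylates glucose, ran from 172.3 to 437.2 in cage and from 321.2 to 1214.9 in visible platform rats (0.89 ± 0.35, and 0.65 without those arrays). All 8 visible platform arrays lay above the cage mean of Hk2, and 5 lay above every cage array. The glycolysis list had a median of -0.17 with 13 of 19 lower and 0 past the threshold. Its direction turned without the arrays of low correlation (0.13, with 14 of 19 higher), with array weights (0.15), and within animals 25 to 36 (0.041) and 81 to 100 (0.25).

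**Figure D3:**
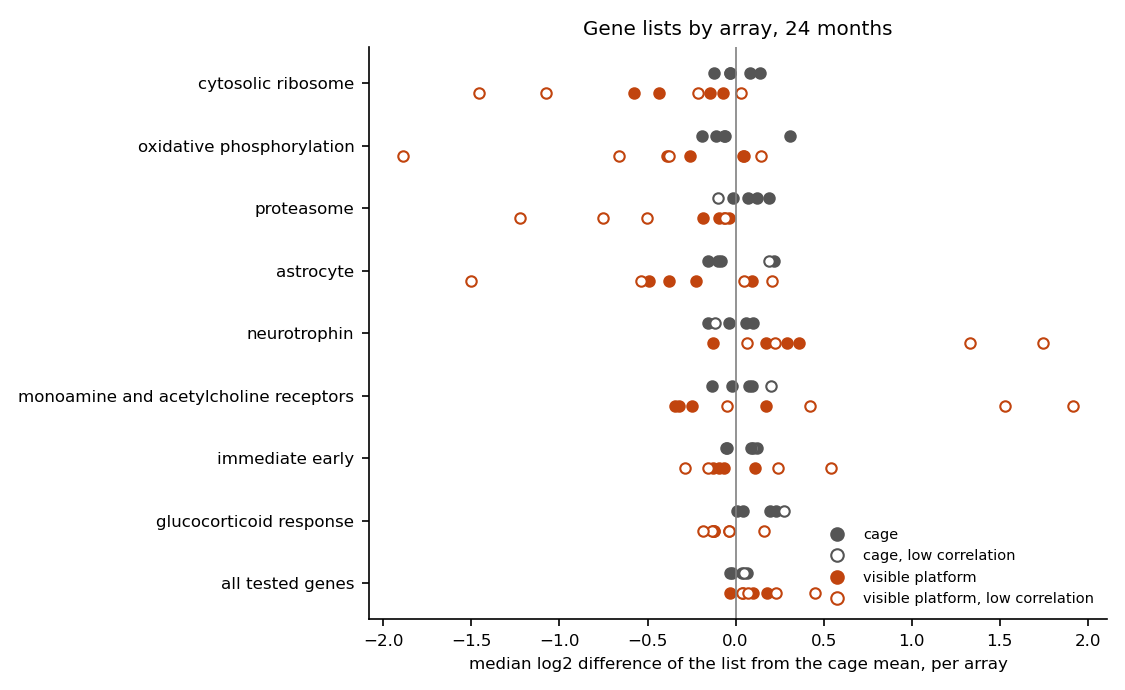
Median log2 difference of each gene list from the mean of the cage arrays, per 24-month array, in cage (grey) and visible platform (orange) rats; open points are arrays of correlation under 0.85. Visible arrays 67 and 68 hold the lowest ribosome values, -1.46 and -1.08, and the highest neurotrophin values, 1.74 and 1.33.

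Among markers of glia, 16 of 18 astrocyte genes were lower, with a median of -0.41 and 0 past the threshold. Slc1a3, the glutamate transporter of astrocytes, read 5445.4, 7219.5, 6005.2, 5539.1 and 6249.4 in cage rats and 1608.3 to 6420.5, with a median of 4538.6, in visible platform rats. Of 8 visible platform arrays 6 lay below every cage array of Slc1a3, and the difference was -0.55 ± 0.38 (-0.43 without the arrays of low correlation). The 3 other probe sets of Slc1a3 differed by 0.35, 0.10 and -0.27, so the direction depends on the probe set. Aqp4, the astrocyte water channel, ran from 133.3 to 235.0 in cage and from 42.3 to 184.4 in visible platform rats (-0.55 ± 0.41). The summed signal of the 18 astrocyte genes was 48011 to 266723 in visible platform rats and 110126 to 235060 in cage controls, with no value of 0. The list's median was -0.16 without the arrays of low correlation, with 15 of 18 lower, where 1411 of all 3233 genes were lower. For the 14 oligodendrocyte and myelin genes the median was -0.23, with 11 lower and 3 higher, Gjb1 being the highest. Without the arrays of low correlation it was -0.034, with 8 lower and 6 higher. Within animals 25 to 36 it was -0.63 with 13 lower, and within animals 81 to 100 it was 0.34 with 10 higher, so the direction did not hold across the ranges. Mog, a glycoprotein of the myelin surface, ran from 313.8 to 556.6 in cage and from 117.5 to 625.2 in visible platform rats (-0.43 ± 0.31).

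Microglia and complement genes showed no common direction, with 7 of 15 higher and a median of -0.093, and 9 of 15 higher and a median of 0.054 without the arrays of low correlation. C3, the central complement component, read 310.8, 166.6, 128.9, 269.4 and 141.0 in cage rats and 58.5 to 363.5, with a median of 107.0, in visible platform rats (-0.58 ± 0.42). The receptor gene C5ar1 lay the other way, from 361.3 to 593.6 in cage and from 465.6 to 1836.1 in visible platform rats (0.79 ± 0.34, and 0.19 without the arrays of low correlation). Arrays 67 and 68 held the 2 highest values of C5ar1, 1787.6 and 1836.1. Of choroid plexus and meninges genes, Ptgds, prostaglandin D2 synthase, read 1538.4 to 2419.9 in cage and 178.5 to 2156.7 in visible platform rats (-0.86 ± 0.40), while the 14 genes of that list had a median of 0.17 (0.0042 without the arrays of low correlation) and summed to between 5283 and 12096 in visible platform and 4827 and 10347 in cage rats.

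Neurotrophins and their receptors, which support neurons and synapses, were mostly higher, 13 of 15 with a median of 0.43 and 0 past the threshold. Among the ligands, Ntf3, neurotrophin 3, read 497.5, 391.0, 586.2, 457.1 and 778.2 in cage rats and 575.6 to 2478.4, with a median of 769.2, in visible platform rats. All 8 visible platform arrays lay above the cage mean, and the difference was 0.89 ± 0.31 (0.52 without the arrays of low correlation). Gdnf, the glial cell line-derived factor, differed by 1.00 ± 0.59. Bdnf, the activity-regulated neurotrophin of CA1, read 425.1, 308.9, 188.6, 97.7 and 174.8 against 126.7 to 475.4, with a median of 316.7, and its groups overlapped widely (0.43 ± 0.39). Its 3 other probe sets differed by 0.76, 0.70 and -0.038. Among the receptors, Ntrk3, which binds neurotrophin 3, differed by 1.07 ± 0.54 and by 0.43 without the arrays of low correlation, since arrays 67 and 68 held 1675.0 and 1511.9 and the other 6 between 127.9 and 514.5. Ntrk2, the BDNF receptor, read 893.3, 832.4, 1182.3, 955.6 and 1894.4 in cage rats and 276.7 to 1587.5, with a median of 1178.2, in visible platform rats (-0.28 ± 0.40, and 0.20 without those arrays, which turns the direction). The list's median by array was 1.74 on visible array 67 and 1.33 on array 68, and between -0.13 and 0.36 on the other 6. Dropping the arrays of low correlation gave 0.20, with 12 of 15 higher. Without array 67 alone it was 0.19, and without array 68 alone 0.29.

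Receptors for monoamines and acetylcholine had a median of 0.29 with 23 of 29 higher. This turned to -0.19, with 17 of 29 lower, without the arrays of low correlation, and the list stood at 1.92 on visible array 67 and 1.53 on array 68 and between -0.35 and 0.42 on the others. It was -0.024 with array weights. Across all 5244 probe sets, differences were lower at higher mean signal (Spearman -0.338, and 0.0381 once arrays of low correlation were dropped; these points share arrays and are not independent). The 1311 probe sets of highest signal had a median of -0.18 and the 1311 of lowest signal 0.25, and 0.0370 and -0.0485 without those arrays. Whether signal level has a part in the list values was not tested. Within animals 25 to 36 and within animals 81 to 100, the medians were -0.062 and -0.31 for oxidative phosphorylation, -0.19 and -0.36 for the proteasome, -0.28 and -0.083 for astrocytes, 0.19 and 0.40 for neurotrophins, and -0.001 and -0.054 for the monoamine and acetylcholine receptors. The last of these lists was thus not higher within either range of animal numbers.

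Immediate early genes, which mark recent neuronal activity, were evenly split on their main probe sets, 15 higher and 15 lower of 30. The median was -0.0133 (0.040 after quantile normalization), with 0 at an unadjusted p under 0.05 (9.46% of all genes). Other probe sets of these genes lay on both sides, but those with an unadjusted limma p under 0.05 were all higher. Among them were 1.06 for Nr4a1 and 0.91 for Egr4 (unadjusted limma p = 0.00279 and 0.0152). No lower one reached that level, such as -0.54 for Junb (p = 0.215). The even split thus holds for the main probe sets only. Fos, a transcription factor, read 641.4, 616.5, 603.5, 551.3 and 700.7 in cage rats and 375.8 to 3231.5, with a median of 764.8, in visible platform rats. The difference of Fos was 0.52 ± 0.40, and 0.25 without the arrays of low correlation, of which arrays 67 and 68 held the 2 highest values and 33 and 97 the 2 lowest. Egr1, a further activity-induced transcription factor, overlapped almost fully, from 9950.3 to 44559.9 in cage and from 11836.3 to 49163.6 in visible platform rats (-0.15 ± 0.50, and 0.11 after quantile normalization). Its 3 other probe sets differed by 0.12, -0.038 and -0.011.

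Of the effector genes, Arc, a synaptic protein needed for lasting memory, read 1870.7, 1882.0, 2907.1, 3240.9 and 3160.3 against 1031.1 to 2803.9, with a median of 2406.2 (-0.21 ± 0.41, and 0.14 without the arrays of low correlation). Homer1, a postsynaptic scaffold with an activity-induced short form, read 4399.6, 2438.5, 3156.2, 4028.6 and 6147.7 in cage rats. On the visible platform arrays 6 of 8 lay below every cage array, with a median of 2132.3, and array 68 held 7925.4. The difference of Homer1 was -0.56 ± 0.40, and its 5 other probe sets differed by 0.11, 0.0990, 0.0874, -0.033 and -0.18; the main probe set does not say which form it reads.

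Genes of the glucocorticoid response had a median of -0.14 with 11 of 19 lower, and of 0.0074 with 9 lower and 10 higher without the arrays of low correlation. The receptors themselves did not separate on their main probe sets. Nr3c1, the glucocorticoid receptor, read 429.9, 311.0, 737.9, 1189.4 and 920.7 in cage rats and 209.4 to 1255.3, with a median of 571.6, in visible platform rats (-0.14 ± 0.30, and 0.15 without the arrays of low correlation). Another probe set of Nr3c1 differed by 0.87 ± 0.38, in the opposite direction (unadjusted limma p = 0.0270). Nr3c2, the mineralocorticoid receptor, read 1136.5, 634.9, 853.5, 787.8 and 522.9 against 331.0 to 1430.9, with a median of 588.8 (-0.17 ± 0.37, and 0.0629). Of the target genes, Sgk1, a kinase induced by corticosteroids, ran from 101.4 to 588.2 in cage and from 253.4 to 875.2 in visible platform rats (0.39 ± 0.37, and 0.17). Nfkbia, given above, was the 1 of these 19 genes whose main probe set had an unadjusted p under 0.05. That share of 5.26% is below the 9.46% of all genes.

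Pyramidal neuron markers had a median of -0.00571, with 6 of 12 lower, and of 0.061 after quantile normalization. Gria1, the AMPA receptor subunit GluA1, read 4407.0, 2624.2, 13030.1, 10254.4 and 9553.5 in cage rats and 272.8 to 9335.0, with a median of 5395.2, in visible platform rats. Its difference of -1.13 ± 0.79 became -0.18 without the arrays of low correlation, as arrays 67 and 68 held 664.4 and 272.8. Other probe sets of Gria1 differed by -0.095 and -1.54. Hpca, the calcium sensor hippocalcin, read 11398.0, 10943.9, 14004.5, 10860.9 and 16637.9 against 2750.3 to 12624.4, with a median of 11431.4 (-0.55 ± 0.55, and -0.14). Man1a1, a mannosidase of N-glycan processing, lay higher (0.87 ± 0.36), with 5 of 8 visible platform arrays above every cage array.

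Young rats gave the same contrast on other arrays, 4 visible platform and 3 cage rats of 3 months. With limma, 0 of 5244 probe sets (0%) passed, with 464 at an unadjusted p under 0.05. With array weights 1235 passed. Without young visible array 65 the count was 120, without young cage array 74 it was 2, and without any other single array it was 0. In the test of whether the difference changed with age, 4 of 5244 probe sets (0.0763%) passed. Map3k12 differed by -1.37 ± 0.41 at 24 months and 2.59 ± 0.64 at 3 months, so the 24-month difference was lower by 3.95 (limma adjusted p = 0.00584). Its young cage arrays read 58.5, 58.8 and 65.3 and the young visible platform arrays 505.3, 540.4, 154.2 and 865.0. The groups thus did not overlap at either age and lay in opposite orders. How many of all 5244 probe sets do not overlap at 3 months, with 4 against 3 arrays, was not counted. Map3k12 was also chosen by the age test on these same values, so the opposite orders carry no separate weight. The value of 154.2 was that of young visible array 65 (correlation 0.768), and the lowest aged visible values were on arrays 67 and 68. Whether array quality has a part in these orders was not tested.

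A further probe set of Ap2b1, a subunit of the clathrin adaptor of endocytosis, read 386.0, 297.5, 336.1, 158.9 and 296.2 in aged cage rats and 396.9 to 669.3, with a median of 517.9, in aged visible platform rats. At 3 months it ran from 715.5 to 943.9 in cage and from 222.1 to 453.1 in visible platform rats, again without overlap and in the opposite order. This probe set too was chosen by the age test, so its order carries no separate weight. The differences were 0.83 ± 0.25 and -1.27 ± 0.36, apart by 2.10 (limma adjusted p = 0.00584). Of the other 2 probe sets of Ap2b1, 1 differed by 1.01 and the brightest by -0.16 in aged rats. Psmb4, a proteasome core subunit, was read by 3 probe sets, 1 of which passed: at 24 months it differed by -0.84 ± 0.39 and at 3 months by 2.19 ± 0.42 (difference -3.02, limma adjusted p = 0.0125). In aged rats the other 2 probe sets of Psmb4 differed by -0.98 and, for the 1 of mean signal 7602, by -0.028. Ece1, the endothelin converting enzyme, differed by -0.37 ± 0.27 and 1.87 ± 0.45 (difference -2.24, limma adjusted p = 0.0187), with 55.2 to 195.9 in young cage rats against 420.6 to 782.4 in aged ones.

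**Figure D4:**
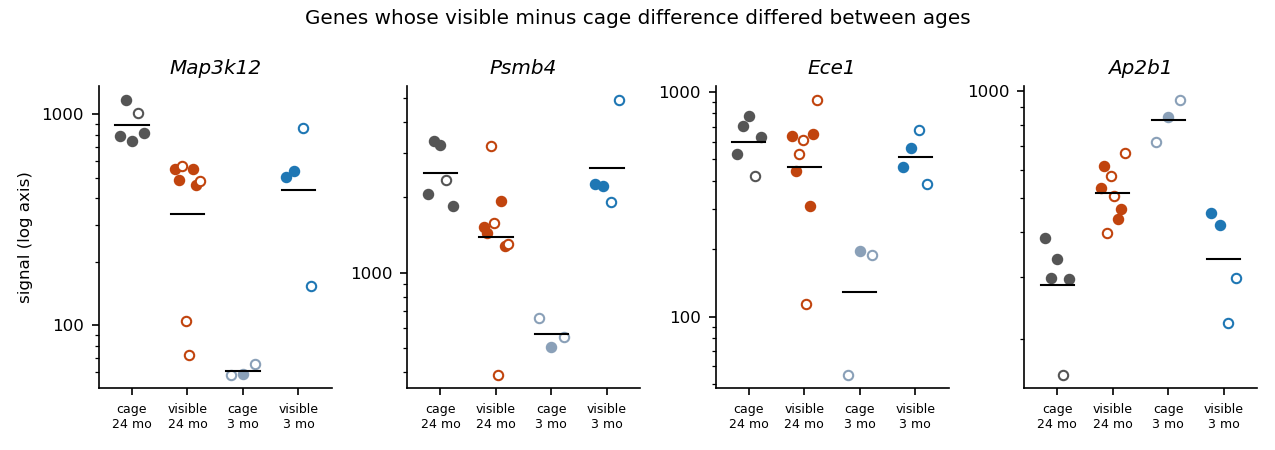
Signal per array (log axis) of the 4 genes whose visible minus cage difference differed between ages, in cage and visible platform rats of 24 and 3 months; open points are arrays of correlation under 0.85 and the line is the mean on the log2(signal + 15) scale. Young cage rats hold the lowest group mean of Map3k12, Psmb4 and Ece1 and the highest of Ap2b1.

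All 4 calls rest on 3 young cage arrays, 2 of them (70 and 76) of correlation under 0.85. All 3 were of high disagreement between probe sets of a gene. Over the tested probe sets, arrays 70, 74 and 76 had correlations of 0.679, 0.821 and 0.414. Their log2 ratios of 3' to 5' control probe sets were 0.286, 1.63 and 0.516, against 1.96 to 2.57 in aged cage rats. With each of the 20 arrays of these groups left out in turn, Map3k12, Psmb4 and Ap2b1 passed every time, and Ece1 passed 15 times. Leaving out 1 array still leaves at least 2 young cage arrays of high disagreement, so it cannot show whether the calls depend on them. Ece1 missed the threshold without young cage array 70 (-1.72, limma adjusted p = 0.141), young visible array 29 or 30, or aged cage array 36 or 98. The count of probe sets that passed ran from 3 to 307, the latter without young visible array 65, and was 111 without young cage array 74. After removal of the arrays of low correlation, 1 young cage array remains, assumed to vary like the other groups. Then 41 probe sets passed, among them Map3k12 (-3.60, limma adjusted p = 0.00701) and Psmb4 (-2.86, 0.0434), while Ap2b1 (1.54) and Ece1 (-1.73) had an adjusted p of 0.0757.

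Across probe sets the 24-month and 3-month differences had a Spearman correlation of -0.437, and of 0.0856 without those arrays; this describes the 5244 probe sets, which share arrays. In young rats the median difference was 0.36 for ribosomal, 0.32 for oxidative phosphorylation and 0.39 for proteasome genes, against -0.060 for all genes, opposite in sign to the 24-month medians of those lists. At 24 months 4 of 8 visible and 1 of 5 cage arrays were of low correlation, and at 3 months 2 of 4 and 2 of 3. High disagreement was found on 4 of 8 visible and 2 of 5 cage arrays at 24 months, and on 2 of 4 and 3 of 3 at 3 months. Whether these list values differ between ages, or whether array quality has a part in their signs, was not tested.

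Aged yoked, unimpaired and impaired rats were compared with the same 5 cage arrays, so their values are set side by side and are not independent; rats labelled B were not compared with cage here. The genes below were also chosen for their distance from those cage arrays, so a shared sign carries no separate weight. For Map3k12, the difference from cage was -1.37 in visible platform, -0.68 in yoked, -0.81 in unimpaired and -0.65 in impaired rats. For Rpl35a, the same 4 differences were -1.20, -1.42, -0.93 and -1.38. For Hbb they were -2.49, -2.29, -1.74 and -1.78. For Slc4a7 they were 1.34, 0.80, 1.1 and 0.97, and for Prdx3 0.79, 0.61, 1.03 and 0.79. Visible platform rats differed from yoked rats by -0.68 in Map3k12, 0.22 in Rpl35a and 0.18 in Prdx3, and limma called 0 of 5244 probe sets between these 2 groups, with 244 at an unadjusted p under 0.05. Without the arrays of low correlation limma again called 0, but 508 had an unadjusted p under 0.05, 236 higher and 272 lower. The smallest adjusted p was then 0.0813.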

How the data were processed

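RNA of CA1 punches from 79 rats was read on an Affymetrix rat array with 8799 probe sets. The deposited values are signal intensity on a linear scale from MAS5, per the submitters' processing notes, scaled by the authors to a trimmed mean near 500 per array as the values show. The number of arrays limits precision, and nothing says whether batches of animals were processed together.

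From these values, log2(signal + 15) was taken, 15 being the rounded 10th percentile. Control probe sets (59) and the 40% of probe sets of lowest mean signal were left out, which kept 5244, of which 4284 have 1 gene symbol (3233 genes). Symbols came from GEO's platform annotation, updated through RefSeq, and a gene is represented by its tested probe set of highest mean signal unless another is named. limma 3.58.1 (R 4.3.3) fitted 5 groups of 44 aged arrays with lmFit and eBayes (trend), with Benjamini-Hochberg adjustment and a threshold of 0.05. The age test added 19 young arrays. Quality measures were compared by exact two-sided permutation tests (scipy 1.17.1). The limma step was tested on simulated data, drawn independently with the same spread on every array. That test does not cover the uneven quality of the real arrays. No pair of arrays held identical values. An array is of low correlation where its median Spearman correlation with the others, over 8740 probe sets, is under 0.85 (14 arrays), and of high disagreement where the root mean square SD between probe sets of a gene is over 0.75 (18 arrays). These definitions were kept because they matched counts already known. Over the tested probe sets 23 arrays are under 0.85, and other summaries of disagreement give 8 to 22 arrays.

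Named genes are, by rule, the 10 of smallest p in each direction with all arrays, the 5 in each direction without arrays of low correlation, genes of each list with the smallest p, chosen memory, stress and neurotrophin genes, and those called in the age test. Genes whose groups did not overlap were added afterwards. Of the 194 probe sets so allowed, 69 are named, picked after their values and stability were seen. The comparison, the members and the lists were chosen with earlier results of these data known. Alternatives covered the pseudocount, filter, scaling, weights, covariates, arrays in the fit and single arrays left out. Arrays labelled B among hidden platform rats entered only the fit of all 79 arrays.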

Additional observations from a re-analysis of the deposited data

Results flagged for a closer look

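Among 146 sets of values per group that were examined, 12 held an array far from the rest. Chance marks about 1 in 20 of independent sets. The sets here share arrays, and many genes were picked by their values, so the count cannot be read against that rate. On visible platform array 68 these were Arc at 1031.1, Hbb-b1 at 93.8 and Psmb4 at 390.1, each the lowest, Homer1 at 7925.4, the highest, and, as the lowest, the ratio of control probe sets at the 3' end to those at the 5' end, -0.324 on the log2 scale. On visible platform array 67 they were Ptgds at 178.5, Rpl14 at 159 and Slc1a3 at 1608.3, each the lowest. In cage rats they were Cacnb1 at 70.4 on array 98, Edem3 at 94.1 and Man1a1 at 167.4 on array 99, each the lowest, and Sparcl1 at 27712.1 on array 36, the highest.

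The visible minus cage difference differed between 24 and 3 months, by a limma test of the difference itself, for 4 probe sets. They were those of Map3k12 (-3.95) and Ece1 (-2.24), 1 of 3 probe sets of Psmb4 (-3.02) and a further probe set of Ap2b1 (2.10).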

How the results depend on the processing

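The count of 0 probe sets past the threshold held under every setting but array weights (208), all 79 arrays (1) and leaving out cage array 36 (1, with a range of 0 to 1 over single arrays). In both of the last cases the same unnamed probe set passed. At 3 months the count was 1235 with array weights and 1 without arrays of low correlation, and 0 to 120 over single arrays. The age test gave 13 with the 60% of lowest signal left out, 1600 with array weights, 41 without arrays of low correlation, and 3 to 307 over single arrays, a setting added after the data were seen. It exceeded 1.5 times its count without young visible array 65 (307), young cage arrays 74 (111) or 76 (7), aged visible arrays 33 (14), 96 (10), 69 (8) or 97 (7), or aged cage array 35 (10). Groups did not overlap for 250 probe sets without arrays of low correlation and for 21 to 46 over single arrays (40 without cage array 36, 36 without 98 or 99, 46 without 100, 34 without visible array 33 or 69, 35 without 96). Without the arrays of low correlation over the tested probe sets, added after the data were seen, 0 passed and 513 had an unadjusted p under 0.05. The differences in array quality kept their direction without any single array: -0.0690 to -0.0168 for correlation, 0.0337 to 0.174 for disagreement, -0.539 to -0.145 for the 3' to 5' ratio and 23.5 to 49.5 for median signal. No paired analysis was possible because the animal numbers are not shared between groups.

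Of 1162 values of the 69 named genes under 17 settings, 44 reversed (18 genes), against 276 of 3246 over all 194 probe sets the rule allowed. With single arrays left out 4 of 897 reversed, against 59 of 2522, and 11 of 33 other probe sets pointed the other way. The cause of these reversals was not tested. Quantile normalization gave -0.046 for Ap1s1 and 0.11 for Egr1, and median centring -0.049 for Ap1s1. Array weights gave 0.13 for Arc, 0.36 for Nr3c1, 0.32 for Nr3c2, 0.35 for Ntrk2 and -0.12 for Sgk1. With the 3' to 5' control ratio in the model the values were 0.087 for Arc, 0.015 for Nr3c1, 0.0064 for Nr3c2 and 0.028 for Ntrk2. Without arrays of low correlation the values were 0.14 for Arc, 0.15 for Nr3c1, 0.063 for Nr3c2 and 0.20 for Ntrk2. Without arrays of high disagreement, and without those of low correlation over the tested probe sets, they were 0.24 for Arc, 0.17 for Gria1, 0.29 for Nr3c1, 0.12 for Nr3c2 and 0.22 for Ntrk2. Within animals 25 to 36 they were 0.30 for Arc, -0.023 for Bdnf, 0.30 for Egr1, 0.50 for Gria1, 0.010 for Hpca, 1.23 for Nr3c1, 0.055 for Nr3c2, 0.72 for Ntrk2 and -0.23 for Sgk1. Within animals 81 to 100 they were 0.77 for C3, 0.37 for Ece1, -0.12 for Fos, 0.20 for Map4k4, 0.45 for Mog, 0.017 for Ntrk2, 0.64 for Paqr3, 0.21 for Ptgds and 0.094 for Rpl36. Other probe sets gave -0.16 for Ap2b1, -0.038 for Bdnf, 0.12 for Egr1, 0.11, 0.099 and 0.087 for Homer1, 0.87 for Nr3c1, 0.052 for Nr3c2, 0.35 and 0.10 for Slc1a3 and -0.60 for Thpol1. Single arrays turned Ap1s1 (-0.0067 without visible array 32, in a range up to 0.39), Egr1 (0.14 without cage array 98, in a range down to -0.40) and Nr3c1 (0.058 without visible array 68, 0.075 without cage array 99, in a range down to -0.40).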
